A study of Mus musculus with 3 samples.

Results

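In the library labelled 4 dpi, 927 of 4492 kept cells carried transcripts of the cell-division machinery at a level that set them apart by rule. Members were chosen by measured values: a cell was taken when 10 genes of the division cycle (Mki67, Top2a, Cenpf, Cdk1, Ccnb1, Ccnb2, Ccna2, Birc5, Ube2c and Nusap1) together made up at least 0.2% of its unique molecular identifiers (UMIs, each read as 1 captured transcript). Members were 20.6% of the kept cells of that library (19.5 to 21.9), and the whole series held 10522 kept cells in 3 libraries. They were compared with the 2031 cells of the same library in which the 10 genes had no UMI, called zero cells here. The remaining 1534 cells lay between, with at least 1 UMI but under 0.2%. Numbers in brackets are 95% intervals that cover counting error only.

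The library came from mouse embryonic fibroblasts that were being turned into motor neurons. All 3 libraries of the series have the Hb9::GFP genotype, a reporter in which the promoter of Hb9, the motor neuron gene now named Mnx1, switches on a green fluorescent protein. All cells had received LNI, a cassette that encodes mouse Lhx3, HA-tagged mouse Neurog2 and Isl1 in 1 transcript, and DDRR, which joins HRAS(G12V) to p53DD. HRAS(G12V) is an activated form of a growth-signalling GTPase, and p53DD is a fragment that blocks p53, the brake on division after damage. The 4 dpi culture had the supplements BDNF, CNTF, GDNF, FGF and RepSox and was dissociated with trypsin. Its cells were sorted as live cells with a low signal of CellTrace, a dye that is diluted at each division, so the sort itself selected cells that had divided often. The other libraries were made at 14 dpi, 1 with the supplements and 1 without, from papain-dissociated cells sorted for the GFP reporter. With 1 library for each group, no difference has a replicate check, and the sort, the dissociation and the time cannot be told apart between 4 and 14 dpi.

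A dividing cell copies its DNA in S phase and parts the copies in mitosis. In S phase, licensed origins fire, helicase and polymerase complexes unwind and copy the DNA, nucleotide-making enzymes supply the building blocks, and histone genes of the replication clusters are switched on to package the new strands. From G2 into mitosis, cyclin B with Cdk1 drives the condensation of chromosomes, kinetochores attach them to a spindle of microtubules, and the anaphase-promoting complex then destroys cyclin B and the cohesin guard so that the cell can part. Fibroblasts divide little when crowded or differentiated, and neurons do not divide, so a cell on the way from one to the other has to leave the cycle at some point.

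The promoters of many of these genes carry short shared motifs, and those of 3 rule genes (Cdk1, Ccnb2, Top2a), 2 other mitotic genes (Cdc20, Kif11) and 1 replication gene (Mcm5) are shown as examples of where the motifs lie. The lines below give the 200 bases before the transcription start, 5′ to 3′ on the gene's strand, from RefSeq on GRCm38.p6. Capitals mark the cell-cycle homology region TTTGAA (CHR, bound by the MuvB complexes), the CCAAT box (bound by NF-Y) and the E2F motifs TTTCCCGC, TTTGGCGC and TTTCGCGC, each on either strand.
Cdk1, chr10:69352913-69353112, minus strand: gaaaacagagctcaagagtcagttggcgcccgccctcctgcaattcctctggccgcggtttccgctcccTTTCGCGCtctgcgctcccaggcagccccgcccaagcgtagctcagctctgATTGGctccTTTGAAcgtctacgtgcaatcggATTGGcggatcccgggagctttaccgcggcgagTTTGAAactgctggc
Ccnb2, chr9:70421555-70421754, minus strand: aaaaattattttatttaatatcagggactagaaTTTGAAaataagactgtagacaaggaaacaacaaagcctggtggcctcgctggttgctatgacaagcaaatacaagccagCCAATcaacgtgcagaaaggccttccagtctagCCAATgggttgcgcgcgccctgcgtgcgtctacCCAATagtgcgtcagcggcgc
Top2a, chr11:99024190-99024389, minus strand: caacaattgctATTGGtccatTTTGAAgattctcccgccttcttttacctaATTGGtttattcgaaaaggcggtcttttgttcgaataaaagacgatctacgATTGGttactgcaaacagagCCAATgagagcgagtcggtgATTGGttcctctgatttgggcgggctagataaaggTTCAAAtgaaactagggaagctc
Cdc20, chr4:118437344-118437543, minus strand: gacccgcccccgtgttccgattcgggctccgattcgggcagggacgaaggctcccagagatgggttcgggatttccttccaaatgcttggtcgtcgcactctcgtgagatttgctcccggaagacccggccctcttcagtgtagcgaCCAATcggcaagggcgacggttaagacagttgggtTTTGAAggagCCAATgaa
Kif11, chr19:37376182-37376381, plus strand: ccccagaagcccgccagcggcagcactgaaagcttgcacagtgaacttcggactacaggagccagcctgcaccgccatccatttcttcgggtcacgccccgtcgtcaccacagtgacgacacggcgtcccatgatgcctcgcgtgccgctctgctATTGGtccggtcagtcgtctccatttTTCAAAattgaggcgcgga
Mcm5, chr8:75109309-75109508, plus strand: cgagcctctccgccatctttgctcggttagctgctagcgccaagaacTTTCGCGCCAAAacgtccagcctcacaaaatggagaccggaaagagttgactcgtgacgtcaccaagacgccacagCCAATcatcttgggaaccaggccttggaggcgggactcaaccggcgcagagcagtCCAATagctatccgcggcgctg

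In the windows of Cdk1, Ccnb2, Top2a, Cdc20 and Kif11, all mitotic genes, a CHR was found in each. That of Cdc20 starts 18 bases before the start site, that of Kif11 19 bases and the nearer one of Top2a 23 bases. The CCAAT boxes of Ccnb2 stood at 87, 54 and 21 bases. Mcm5, a subunit of the replicative helicase, had no CHR in the window and had overlapping E2F motifs at 153 and 149 bases. Over 300-base windows, from 250 bases before to 50 after the start, a CHR was found in 44.0% of the 175 windows of genes at least 4-fold higher in members than in zero cells, which had a window for 155 of 186 genes. It was found in 15.2% of the 243 windows of genes at least 2-fold lower, in 12.3% of the 6814 windows of all genes counted, from which both sets were drawn, and in 17.9% of all 32851 windows. In the same order of sets, a CCAAT box stood in 64.6%, 35.4%, 38.02% and 37.4%, and an E2F motif in 10.3%, 1.24%, 3.85% and 1.85%. The windows of the mitotic genes (98) and of the replication and nucleotide genes (51) differed: a CHR was in 50% of the former against 11.8% of the latter, and an E2F motif in 7.14% against 21.6%. These are matches of letters and do not show that a factor was bound.

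The 10 genes of the rule are described only, since they chose the members. Their summed share ran from 0.2% to 1.54% of a member's UMIs, with a median of 0.341%, and a median member had 11 such UMIs. The cells nearest the threshold stood at 0.2%, 0.20027% and 0.2004% inside it and at 0.19985%, 0.19966% and 0.19949% outside it. There were 99 members under 0.22% and 103 other cells at 0.18% or more, and 11 members passed on only 2 UMIs. The threshold therefore runs through a continuous range of cells, as the plot of rule score against depth shows.

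**Figure D1:**
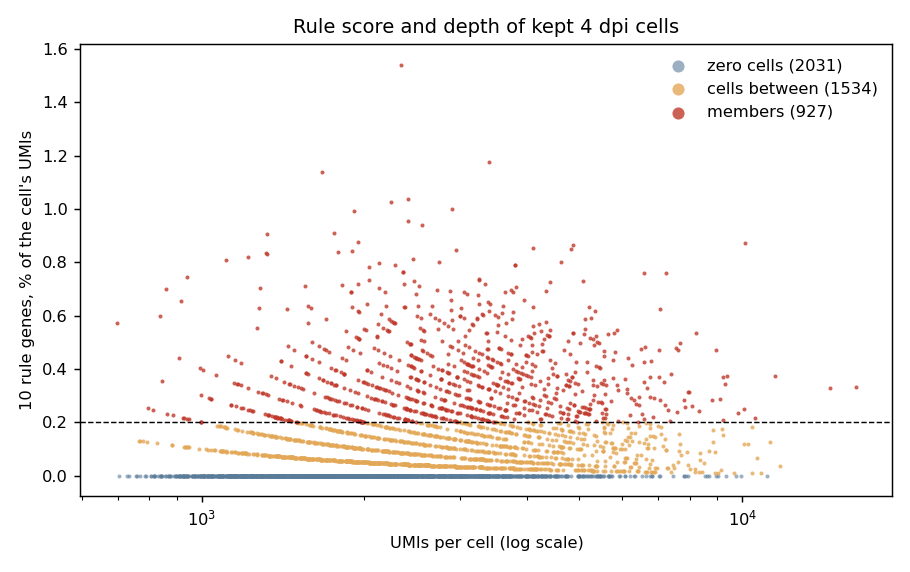
Each point is 1 kept 4 dpi cell; the x axis is its UMIs on a log scale and the y axis the summed share of the 10 rule genes in percent of its UMIs, with the 0.2% threshold dashed. Members (927), cells between (1534) and zero cells (2031) form a continuous range across the threshold, and shares of shallow cells fall on steps of 1 UMI.

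Among the rule genes, Ube2c, the ubiquitin-loading enzyme of the anaphase-promoting complex, was the most abundant in members at 839 counts per 1000000 UMIs (CPM) and had a UMI in 81.2% of them. Top2a, which untangles copied DNA, stood at 644 CPM and Cdk1 at 419. Mki67, a protein that coats mitotic chromosomes, stood at 391 CPM and was seen in 64.4% of members. The least abundant was Nusap1, a spindle protein, at 138 CPM. In the cells between, the same genes ran from 15.4 CPM (Nusap1) to 200 CPM (Ube2c).

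Markers of dividing cells outside the rule were also high. They were chosen with earlier results of these data known, so they describe the members and are no independent check of the label. Cenpe, the kinetochore motor that moves chromosomes to the spindle equator, stood at 342 CPM in members, 99.1 in cells between and 7.89 in zero cells. Pclaf, a clamp-binding factor of replication, stood at 700, 402 and 52.8 CPM. Rrm2, the subunit of ribonucleotide reductase made in S phase, stood at 197, 116 and 16.5 CPM. All 3 were thus graded, with the cells between at a middle level. A UMI of Cenpe was found in 57.9% of members and 1.67% of zero cells. When every cell was thinned to 1000 UMIs, this was 30.3% against 0.615%.

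Depth differed between the groups. The median member had 2925 UMIs and 1461 genes, the median cell between 2642.5 UMIs, and the median zero cell 1889 UMIs and 1019 genes. At 0.2%, a cell of 1889 UMIs would hold 3.778 rule UMIs. The share of members was 26.1% of 4379 cells (24.8 to 27.4) after thinning to 1000 UMIs, which left out 113 shallower cells and made 2 UMIs enough. Kept cells were called with at least 500 genes and at most 20% mitochondrial UMIs. The deposited totals were 37112015, 46150432 and 12290301 UMIs for 14 dpi with supplements, 14 dpi without supplements and 4 dpi. Pairs of libraries shared 3 to 5 cell barcodes.

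UMIs were summed over the cells of each group, and genes at 20 CPM or more in members or zero cells were compared as log2 ratios of CPM. Of 6649 genes counted outside the rule, 381 were at least 2-fold higher in members (5.73%) and 248 at least 2-fold lower (3.73%), and the median over all was -0.03. Of the 381, 188 belonged to the cell-cycle lists, and of the 248, 0 did. The share of these lists among all 6649 genes was not counted, so the 188 have no share over all genes beside them. The ratio compares shares of all transcripts captured and has no test. Against all other kept cells, rather than the zero cells alone, 242 were higher and 40 lower.

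**Figure D2:**
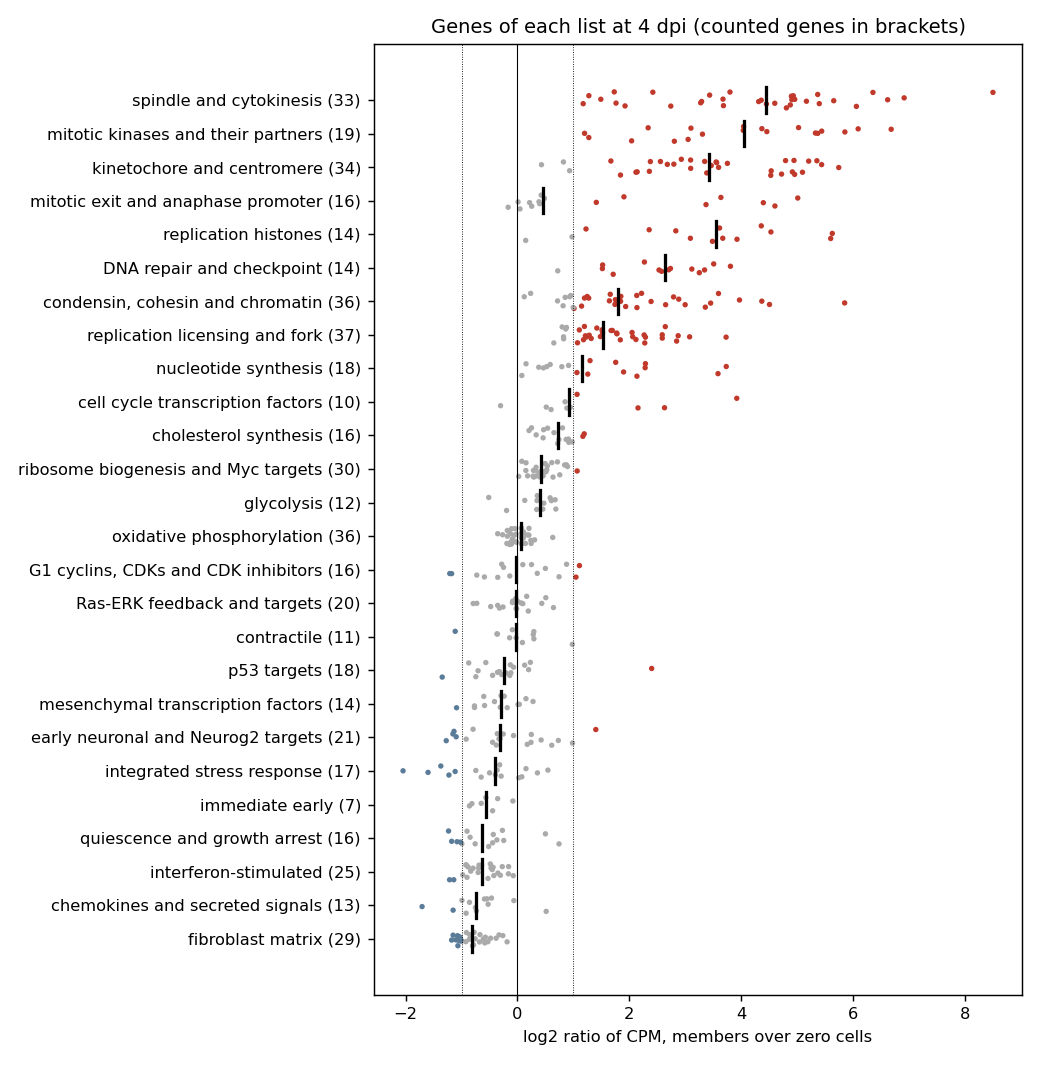
Each point is 1 counted gene of the list named on the left (number of counted genes in brackets, rule genes left out); the x axis is its log2 ratio of CPM, members over zero cells, and black bars are list medians. Points are red at 2-fold or more higher and blue at 2-fold or more lower (dotted lines); the spindle list has its median at 4.45 and the fibroblast matrix list at -0.80.

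Against zero cells, the replication genes were higher in members throughout. Of 37 counted genes of origin licensing and the fork, 31 were at least 2-fold higher and none lower, with a median of 1.52. Clspn, the checkpoint mediator that travels with the fork, had 79.9 CPM in members and 9.47 in zero cells, a log2 ratio of 3.08 (2.60 to 3.59). Cdc45, a helicase subunit, had a ratio of 2.84 and Gmnn, the geminin that blocks a second licensing, 2.87. Pcna, the sliding clamp, had 182 and 57.1 CPM, a ratio of 1.67 (1.46 to 1.89). Of the Mcm subunits of the helicase, Mcm5 had 46.2 and 13.5 CPM (1.77) and Mcm6 150 and 81.9 CPM (0.88). The lowest of the list was Rfc3, of the clamp loader, at 0.65. A rule without Mki67 and Top2a gave Mcm5 a ratio of 0.98 and Mcm6 0.58.

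Enzymes that make nucleotides had 10 of 18 at least 2-fold higher and a median of 1.16. Thymidine kinase, Tk1, stood at 83.9 against 6.32 CPM (3.73) and thymidylate synthase, Tyms, at 142 against 29.1 (2.29). Dut, which keeps uracil out of DNA, was the most abundant of the list at 351 against 104 CPM (1.76). Mthfd2, a mitochondrial folate enzyme, had nearly equal levels of 124 and 118 CPM (0.08, -0.12 to 0.27), and its sign turned in 5 of 17 alternatives. Of 25 DNA repair and checkpoint genes listed, 14 were counted, 13 of them at least 2-fold higher, with a median of 2.64. Genes scarce in zero cells, such as Rad51ap1 and Brca1, entered this count only through their level in members. Rad51ap1, a helper of strand exchange, led with 56.8 against 4.06 CPM (3.81), followed in role by Brca1 at 34.3 against 3.38 CPM (3.34). Usp1, a deubiquitinase of crosslink repair, was the most abundant at 168 against 58.6 CPM (1.52).

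The mitotic genes differed most. All 33 counted spindle and cytokinesis genes and all 19 mitotic kinases and partners were at least 2-fold higher, with medians of 4.45 and 4.04, as were 31 of 34 kinetochore genes (median 3.42). Genes scarce in zero cells, such as Aspm, Kif11, Aurkb, Plk1 and Knl1, were counted only through their level in members. For such genes a ratio past 2-fold was fixed in advance, so these counts and medians are description only. Aspm, a protein of the spindle poles, had the highest ratio outside the rule among genes at 30 CPM or more, with 81.6 CPM in members and 1 UMI, 0.226 CPM, in zero cells, a ratio of 8.50 (6.01 to 13.81). Kif11, the motor that pushes the spindle poles apart, had 136 against 1.13 CPM (6.91). Prc1, which bundles microtubules between the parting chromosomes, had 284 against 5.64 CPM (5.65). Among kinases, Aurkb, which corrects faulty attachments, had 92.5 against 0.902 CPM (6.68), and Plk1, which triggers mitotic entry, 117 against 2.03 CPM (5.85). Cks2, a small Cdk subunit, was the most abundant of that list at 564 against 68.1 CPM (3.05). The lowest was Cdc25a, a phosphatase that activates Cdks also at the start of S phase, at 45.6 against 19.8 CPM (1.20). Thinning, which groups the cells anew by fewer UMIs, brought Aspm to 4.70, Kif11 to 4.13, Aurkb to 3.97 and Cdc25a to 0.69. Among other cycle genes named here it brought Bub1 to 2.58, Rrm2 to 2.28, Brca1 to 2.18, Fbxo5 to 2.84, Esco2 to 3.58, H1f5 to 3.65 and H3c3 to 2.82.

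At the kinetochore, Knl1, its scaffold for checkpoint proteins, led with 109 against 2.03 CPM (5.74, 4.80 to 6.88). Cenpa, the histone that marks the centromere, had 343 against 25.5 CPM (3.75) and Bub1, a checkpoint kinase, 94.1 against 4.06 CPM (4.53). Zwint, a kinetochore partner, stood apart with 177 against 132 CPM (0.43). At 14 dpi it was lower in members of both libraries, at -0.74 and -0.74. Tubb5, a beta-tubulin, was the most abundant spindle-list gene at 1782 against 789 CPM (1.17), and Stmn1, a tubulin-binding protein of dividing cells and young neurons, had 1050 against 433 CPM (1.28).

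The genes of mitotic exit did not move as 1 set. Of 16 counted genes, 7 were at least 2-fold higher and none lower, and the median was 0.45. Espl1, the separase that cuts cohesin, had 21.8 against 0.677 CPM (5.01), Fbxo5, an inhibitor of the anaphase-promoting complex, 104 against 4.29 CPM (4.60), and Cdc20, its activator, 157 against 7.44 CPM (4.39). All of these were counted through their level in members alone. Pttg1, the securin that holds separase back, had 76.9 CPM in members and 86.4 in zero cells (-0.17, -0.41 to 0.07). The interval of Pttg1 spans 0.

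Chromatin genes were mostly higher. Of 36 condensin, cohesin and chromatin genes, 28 were at least 2-fold higher, with a median of 1.81. Esco2, which acetylates cohesin behind the fork, led with 77.9 against 1.35 CPM (5.85). H2az1, a histone variant, was the most abundant at 2682 against 850 CPM (1.66), and Hmgb2, a chromatin protein of growing cells, had 1469 against 122 CPM (3.59). The lowest was Eed, of a Polycomb complex, at 41.9 against 38.6 CPM (0.12), whose sign turned in 2 alternatives. Smc2, a condensin subunit, had 797 against 152 CPM (2.39).

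Among transcription factors of the cycle, Foxm1, the activator of late genes, led with 30.7 against 2.03 CPM (3.92). E2f1, an activator of S-phase genes, had 59.8 against 33.2 CPM (0.85) and its partner Tfdp1 89.8 against 48.7 CPM (0.88, or 0.49 for members at 0.4% or more). Lin37, a repressor subunit of the MuvB complex, was the lowest with 22.1 against 27.3 CPM (-0.30, -0.76 to 0.14), and stood at 0.39 after thinning. The list had 10 counted genes, 4 of them at least 2-fold higher, and a median of 0.91.

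Replication histones split the members further. Their transcripts mostly lack the poly(A) tail that the 3′ chemistry captures, and near-identical copies may share reads, so the levels of single copies are uncertain. Of 31 listed with a feature, 14 were counted. Among these, 12 were at least 2-fold higher and none lower, with a median of 3.55. Those scarce in zero cells, such as H3c3, were counted only through their level in members. H1f5, a linker histone, was the most abundant at 513 against 10.6 CPM (5.60), and H3c3, an H3 copy, led with 44.6 against 0.902 CPM (5.63). H2bc4 had 143 against 129 CPM (0.15, -0.04 to 0.33), and its sign turned in 1 alternative. Within the members, the list took from 0% to 1.47% of a cell's UMIs, and 228 members had none of its UMIs.

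The members were ordered by this share and cut into 3 sets of 309. Replication transcripts differed between the sets, and the mitotic lists as wholes did not follow the order. From the members with the fewest histone UMIs to those with the most, Ccne1, the cyclin that starts S phase, stood at 12.3, 47.5 and 56.4 CPM, and Mcm5 at 24.6, 48.5 and 63.9 CPM. Rrm2 had 139, 210 and 239 CPM. Mitotic genes went both ways. Cdc20 was lower toward the most histone UMIs with 220, 160 and 95.0 CPM, as did Plk1 with 141, 123 and 89.3 CPM, and Cenpa with 435, 307 and 293 CPM. The intervals of the first and last set did not overlap for these 6 genes. The share of all genes with such intervals was not counted, so this cannot be called particular to them. Other cycle genes also had ratio intervals clear of 0, such as Cenpf (-0.57, -0.77 to -0.37) and Dek (0.52, 0.32 to 0.72). Others were higher in the last set than in the first: Aurkb had 67.7 and 115 CPM (log2 ratio 0.76, 0.32 to 1.22), Kif11 115 and 165 CPM (0.52) and Top2a, a rule gene, 484 and 814 CPM (0.75). Aurka, a kinase of the spindle poles, stood at 119, 107 and 126 CPM with overlapping intervals. The licensing and fork list took 0.243%, 0.339% and 0.414% of UMIs, while the spindle list took 0.721%, 0.690% and 0.705%, the mitotic kinases 0.263%, 0.254% and 0.265% and the 10 rule genes 0.398%, 0.361% and 0.382%. The sets therefore differed in replication transcripts more than in the rule genes. Median depth was 2748, 2873 and 3114 UMIs.

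**Figure D3:**
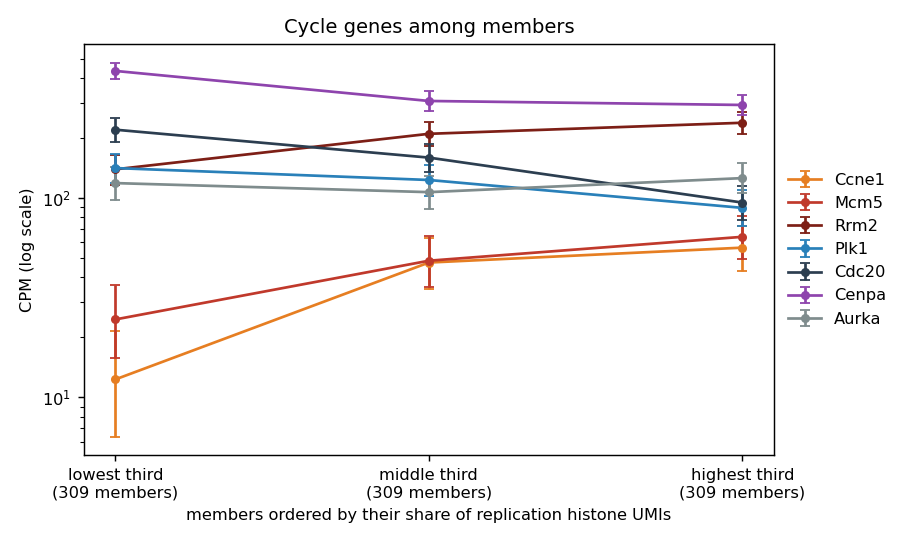
CPM on a log axis of 7 cycle genes in 3 sets of 309 members each, ordered from the fewest to the most replication histone UMIs; bars are exact Poisson intervals. Ccne1, Mcm5 and Rrm2 stand higher, and Cdc20, Plk1 and Cenpa lower, in the set with the most histone UMIs, while Aurka lies between 107 and 126 CPM in all 3; mitotic genes not drawn here, such as Aurkb, stand higher in that set.

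Further genes at 50 CPM or more in either end set are named here after their values were seen, from both ends of the range. Bora, an activator of Aurora A, had 14.4 CPM in the lowest and 66.8 CPM in the highest set (log2 ratio 2.22), Esco2 34.9 and 133 CPM (1.93), Fbxo5 46.1 and 152 CPM (1.72) and Pcna 102 and 264 CPM (1.38). Cdkn3, a phosphatase that acts on Cdks, had 112 and 48.0 CPM (-1.22). Cxcl2, a chemokine, led with 1 and 57 UMIs, but 51 of the latter came from 1 cell. Over the 927 members, the histone share and the licensing share went together with a Spearman rho of 0.46, whereas the licensing share and the share of the mitotic lists had -0.05. The points share a library and a depth range, and many members hold few UMIs of a list. Some zero cells also held replication transcripts: 112 (5.51%) reached the median member's share of the licensing list and 137 (6.75%) that of histones. For the mitotic lists this was 2 cells (0.0985%). In the cells between it was 482 (31.4%), 334 (21.8%) and 84 (5.48%).

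The regulators of G1, which decide whether a cell enters the cycle, gave no common direction. Their 16 genes had a median of -0.02, with 2 at least 2-fold higher and 2 lower. Ccnd1, the D cyclin that growth signals induce, was the most abundant at 838 against 784 CPM (0.10), and its sign turned in 5 alternatives. Ccnd2 stood at 216 CPM in members, 329 in cells between and 500 in zero cells (-1.21, -1.34 to -1.08), a graded difference. The Cdk inhibitor Cdkn1c, p57, was ordered alike with 163, 245 and 369 CPM (-1.18). The inhibitors Cdkn2d and Cdkn2c were higher in members, at 68.0 against 31.6 CPM (1.11) and 69.3 against 33.6 CPM (1.05), with Cdkn2d at 0.71 when zero cells were weighted to the members' depth. Members thus held more of the p19 and p18 inhibitors and less of p57 than zero cells.

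The p53 pathway, which p53DD is meant to block, had most of its genes slightly below 0 against zero cells, but not against the cells between. Of 18 counted target genes, 1 was at least 2-fold higher (5.56%), 1 lower (5.56%) and 14 below 0, with a median of -0.24 (-0.14 at 50 CPM). Over all counted genes, 5.73% were at least 2-fold higher and 3.73% lower, with a median of -0.03. Against the cells between, 11 of 16 target genes lay above 0, with a median of 0.21. At 14 dpi the median of the target genes against zero cells was 0.32 with and 0.09 without supplements. Cdkn1a, the p21 inhibitor that p53 induces, had 470 against 572 CPM (-0.28, -0.38 to -0.19, or -0.48 with zero cells weighted to the members' depth), and Cdkn2a, the locus of p16 and Arf, 749 against 890 CPM (-0.25, or -0.16 after thinning). Gtse1, a mitotic protein that restrains p53 and is itself on the list, had 71.3 against 13.5 CPM (2.40), and the death receptor Fas 16.5 against 42.0 CPM (-1.35). Fas was at -0.64 after thinning. Genes of growth arrest had 16 counted, 4 at least 2-fold lower and none higher, with a median of -0.64 (-0.38 after thinning). Gas6, a ligand named for growth arrest, had 21.8 against 51.2 CPM (-1.23), or -0.69 with zero cells weighted to the members' depth, and Sparc, a matrix protein, 1476 against 2494 CPM (-0.76). Ccng2, a cyclin of arrested cells, was the highest at 26.4 against 15.8 CPM (0.74), or 0.43 as a mean over cells.

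Transcripts of growth and biosynthesis stood modestly higher in members. All 16 cholesterol-synthesis genes lay above 0, with a median of 0.73 and 2 at least 2-fold higher (12.5%, against 5.73% of all counted genes). Idi1, an isomerase of the isoprenoid steps, led with 105 against 45.8 CPM (1.19), and Fdps, which makes farnesyl diphosphate, was the most abundant at 235 against 135 CPM (0.80). Pmvk, a kinase of the mevalonate steps, had the smallest ratio at 0.21, which turned to -0.048 with zero cells weighted to the members' depth. After thinning Idi1 stood at 0.69. The 30 ribosome-biogenesis and Myc-target genes all lay above 0 too, with a median of 0.42 (0.28 after thinning) and 1 at least 2-fold higher. That share of 3.33% lay under the 5.73% of all counted genes. Dkc1, the pseudouridine synthase of ribosomal RNA, had 105 against 50.3 CPM (1.07), and Npm1, a nucleolar chaperone, 2476 against 1834 CPM (0.43, or 0.29 after thinning). Ncl, nucleolin, had 1127 against 628 CPM (0.84), and Nip7, which matures the large subunit, had 65.7 against 64.7 CPM (0.02), with its sign turned in 6 alternatives.

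Glycolysis had a median of 0.40 over 12 genes with none past 2-fold, and of 0.27 for members at 0.4% or more. Eno1, enolase, had 417 against 259 CPM (0.69) and Gapdh 1837 against 1451 CPM (0.34), while Hk1, a hexokinase, had 18.2 against 25.9 CPM (-0.51, or -0.27 among cells with 1500 to 5000 UMIs). The 36 oxidative-phosphorylation genes had a median of 0.07 and the 78 ribosomal protein genes -0.07. The Ras-ERK list, which reads signalling downstream of HRAS, had a median of -0.03 over 20 genes with none past 2-fold. Dusp6, a phosphatase that ERK induces against itself, had 121 against 128 CPM (-0.09, -0.28 to 0.10).

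Fibroblast matrix genes were lower in members. All 29 counted genes lay below 0, 9 of them at least 2-fold lower (31.0%, against 3.73% of all counted genes), with a median of -0.80. The matrix glycoprotein Dcn had 713 CPM in members and 1432 in zero cells (-1.01), the collagen chain Col1a1 333 against 691 CPM (-1.06), Postn, a matricellular protein, 233 against 518 CPM (-1.15), and Thy1, a surface protein of fibroblasts, 55.1 against 125 CPM (-1.18, -1.44 to -0.93). S100a4, a calcium-binding protein of migrating fibroblasts, had the smallest difference at 153 against 174 CPM (-0.19), and its sign turned in 2 alternatives, to 0.0040 and 0.029. The most abundant, S100a6, had 3384 against 4057 CPM (-0.26, or -0.12 with zero cells weighted to the members' depth). Depth moved with this difference: with the zero cells weighted to the members' depth, the median was -0.53, Col1a1 -0.54 and Dcn -0.65. The mesenchymal transcription factors, which specify fibroblast fate, had a median of -0.30 over 14 genes (-0.14 among cells with 1500 to 5000 UMIs), with Twist1 at 281 against 279 CPM (0.01, sign turned in 3 alternatives) and Prrx1 at 605 against 591 CPM (0.03, turned in 1). Contractile genes had a median of -0.02 over 11, with Tpm1, a tropomyosin, at 493 against 502 CPM (-0.02, turned in 3), Tagln2 at 397 against 201 CPM (0.98) and Myl9, a myosin light chain, at 15.8 against 34.3 CPM (-1.11).

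Interferon-stimulated genes and chemokines showed the same direction. All 25 counted interferon-stimulated genes lay below 0, with a median of -0.64 (-0.34 after thinning), though only 2 were at least 2-fold lower. That was 8%, against 3.73% of all counted genes. Ifit2 and Ifit1, which bind viral RNA, had 70.0 against 162 CPM (-1.21) and 490 against 875 CPM (-0.84), and Bst2, which tethers virus particles, 920 against 1325 CPM (-0.53). Thinning brought Ifit2 to -0.74 and Bst2 to -0.33. Cmpk2, a mitochondrial nucleotide kinase, was near equal at 49.9 against 52.5 CPM (-0.08, -0.38 to 0.23), with its sign turned in 6 alternatives. Of 13 chemokines and secreted signals, 12 lay below 0 and 2 at least 2-fold lower (15.4%), with a median of -0.73. Ccl7, a monocyte attractant, had 83.5 against 272 CPM (-1.71) and Ccl2, its neighbour in function, 625 against 1132 CPM (-0.86, or -1.31 for members at 0.4% or more), while Mif, the exception, had 847 against 594 CPM (0.51). The integrated stress response had 5 of 17 genes at least 2-fold lower and a median of -0.40 (-0.62 without Mki67 and Top2a in the rule). Trib3, a brake on Akt, had 7.59 against 31.4 CPM (-2.05) and Ddit3, the factor CHOP, 55.1 against 143 CPM (-1.37), against Psat1, a serine-synthesis enzyme, at 150 against 103 CPM (0.54).

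Several of the lowest genes of all rested on few cells. Saa3, an acute-phase protein, had 4 UMIs in members and 135 in zero cells (-4.53), and 10 zero cells held 68.1% of the latter. Ccl11, an eosinophil attractant, had 12 and 192 UMIs (-3.45), with 52.6% in 10 zero cells, and Chgb, a granule protein of neuroendocrine cells, 26 and 308 UMIs (-3.02), with 55.5%. H19, an imprinted noncoding RNA of growing embryonic tissue, was spread over more cells, 80 members and 300 zero cells, at 53.2 against 193 CPM (-1.86), or -1.05 at matched depth. Markers of blood-derived cells stood almost entirely in 5 zero cells, which held 223 of the 240 UMIs of that list, among them Fcer1g and Lyz2. Members had 8 such UMIs in all, and C1qa, Ptprc and Adgre1 were at 0. Without the cells with at least 5 such UMIs, a setting added after the values were seen, 380 genes were higher, 246 lower and the matrix median was -0.81.

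The cassette transcripts were present in members at slightly higher levels than in zero cells. The 3′ counts cannot tell the introduced sequences from the cell's own genes. Neurog2, the proneural factor, stood at 335 against 261 CPM (0.36), Lhx3 at 136 against 96.5 CPM (0.49) and Isl1, also a LIM-domain factor of motor neurons, at 110 against 75.8 CPM (0.53). Thinning brought the ratio of Lhx3 to 0.15 and that of Isl1 to 0.20. After thinning, a UMI of Neurog2 was found in 24.4% of members (21.6 to 27.3) and 19.7% of zero cells (17.98 to 21.56). For Lhx3 this was 9.81% (7.95 to 11.94) against 7.17% (6.07 to 8.41). For Isl1 it was 8.16% (6.46 to 10.13) against 6.51% (5.45 to 7.69). The intervals of Lhx3 and of Isl1 overlapped. With zero cells weighted to the members' depth, the ratio of Neurog2 was 0.20. Hras had a ratio of 0.27, or 0.020 at that weighting, and Trp53, the gene of p53, had 234 against 212 CPM (0.15), with its sign turned in 2 alternatives. The reporter v.EGFP was lower in summed UMIs, at 126 against 267 CPM (-1.08), or -0.71 as a mean over cells. The share of cells with a UMI of it was not lower, at 60 members (6.47%) and 121 zero cells (5.96%). After thinning this share was 3.97% (2.80 to 5.45) against 5.33% (4.37 to 6.42), with overlapping intervals. Of the members' v.EGFP UMIs, 10 members held 52.6%. With zero cells weighted to the members' depth the ratio of v.EGFP was -0.70. Mnx1, whose regulatory sequence drives the reporter, had 0 UMIs in members and 6 in zero cells.

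Early neuronal genes went both ways, and the grouping by role below was made after their values were seen. The 21 counted genes had a median of -0.31, with 1 at least 2-fold higher, 4 lower and 13 below 0, and the median was -0.060 for members at 0.4% or more and -0.12 as a mean over cells. The list took nearly the same share of the median member's UMIs (0.216%) as of the median zero cell's (0.213%). Its highest share was 3.21% in members and 4.79% in zero cells. No UMI of it was found in 3.02% of members and 8.52% of the shallower zero cells. Several transcription factors of neuronal precursors were higher: Insm1 had 57.1 against 21.7 CPM (1.40, 1.03 to 1.77), Nhlh2 78.9 against 39.9 CPM (0.98) and Hes6, a Hes-family factor that favours differentiation, 205 against 124 CPM (0.73). Neurod1 had 100.1 against 74.7 CPM (0.42), or 0.12 after thinning, and Nhlh2 was at 0.61 among cells with 1500 to 5000 UMIs. Nhlh1, a relative of Nhlh2, was lower at 11.2 against 21.2 CPM (-0.92). Genes of the neuronal cytoskeleton and RNA-binding proteins were lower: Ina, an intermediate filament, had 37.3 against 90.2 CPM (-1.27), Map2, of dendritic microtubules, 17.8 against 38.1 CPM (-1.10), Elavl3, which stabilises neuronal mRNA, 13.9 against 30.4 CPM (-1.13), and Nefm, a neurofilament, 234 against 406 CPM (-0.79, or -0.43 after thinning). Map2 was at -0.59 for members at 0.4% or more. Nefl, the most abundant, had 561 against 721 CPM (-0.36, or -0.053 for members at 0.4% or more). Tubb3, the neuronal tubulin, was an exception among cytoskeletal genes at 269 against 227 CPM (0.24). Removing the 10 cells with the most UMIs of a gene from each group left Insm1 at 1.51, Nhlh2 at 1.01 and Ina at -1.62. For Ina these cells held 36.3% of the UMIs of members and 18.5% of those of zero cells, so the cut itself lowers its ratio. For Insm1 they held 17.3% and 22.9%, and for Nhlh2 21.3% and 21.5%.

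Most differences outside the cycle were already present in the cells between, as the plot of lists along the rule score shows. From zero cells through cells between to members at 0.2 to 0.4% (595 cells) and at 0.4% or more (332 cells), the matrix list took 1.74%, 1.20%, 1.06% and 1.20% of UMIs, and the interferon-stimulated list 0.689%, 0.456%, 0.433% and 0.487%. Col1a1 stood at 691, 299, 283 and 424 CPM. Mitotic transcripts were higher in each range, with Cenpe at 7.89, 99.1, 281 and 453 CPM. Replication transcripts were not: the licensing list took 0.101%, 0.253%, 0.347% and 0.312%, and Mcm5 stood at 13.5, 48.1, 53.6 and 32.7 CPM. Insm1 stood at 21.7, 38.2, 43.9 and 81.4 CPM and Tubb3 at 227, 237, 232 and 336 CPM, so that the highest level of both was in the members with the highest score. Of 6288 genes counted in members against cells between, 147 were at least 2-fold higher (2.34%) and 4 lower (0.0636%). The medians of that comparison were 1.54 for spindle genes, 0.37 for licensing genes (4 of 38 below 0), -0.07 for the matrix and 0.04 for interferon-stimulated genes.

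**Figure D4:**
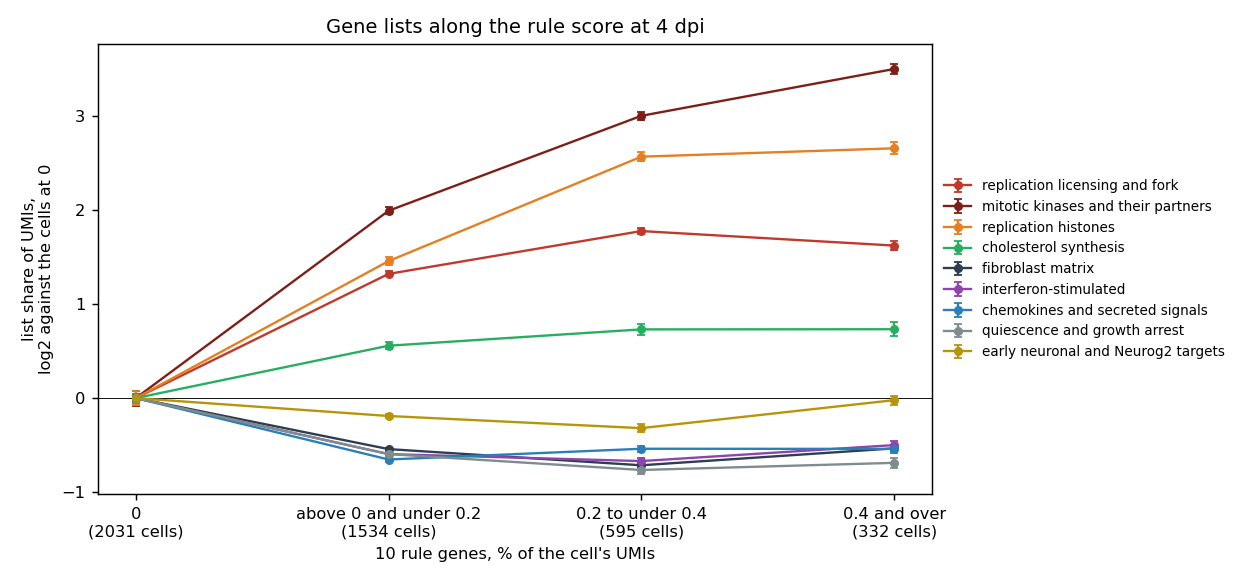
The x axis orders the kept 4 dpi cells by the summed share of the 10 rule genes, in 4 ranges; the y axis is the log2 of each list's share of UMIs against the cells at 0, with rule genes left out and bars for exact Poisson intervals. Mitotic kinases stand higher in each range, whereas matrix, interferon-stimulated, chemokine and growth-arrest genes are lower from the first range above 0 onward.

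The same rule found fewer members at 14 dpi, where cells had passed another sort. There were 140 of 2314 cells with supplements (6.05%, 5.11 to 7.10) and 246 of 3716 without (6.62%, 5.84 to 7.47). After thinning to 1000 UMIs the shares were 26.1% at 4 dpi and 6.75% and 7.28% at 14 dpi. Against the zero cells of their own libraries, 599 of 7128 genes were at least 2-fold higher with supplements (8.4%) and 633 lower (8.88%), and 538 of 7175 without supplements (7.5%) and 763 lower (10.6%). Of the 381 genes higher at 4 dpi, 357 were counted with supplements and 308 of them were at least 2-fold higher there, and 289 of 342 without supplements. Of the 248 lower at 4 dpi, 159 were counted with supplements, 34 of them lower and 16 higher, and without supplements 44 of 182 were lower and 7 higher.

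**Figure D5:**
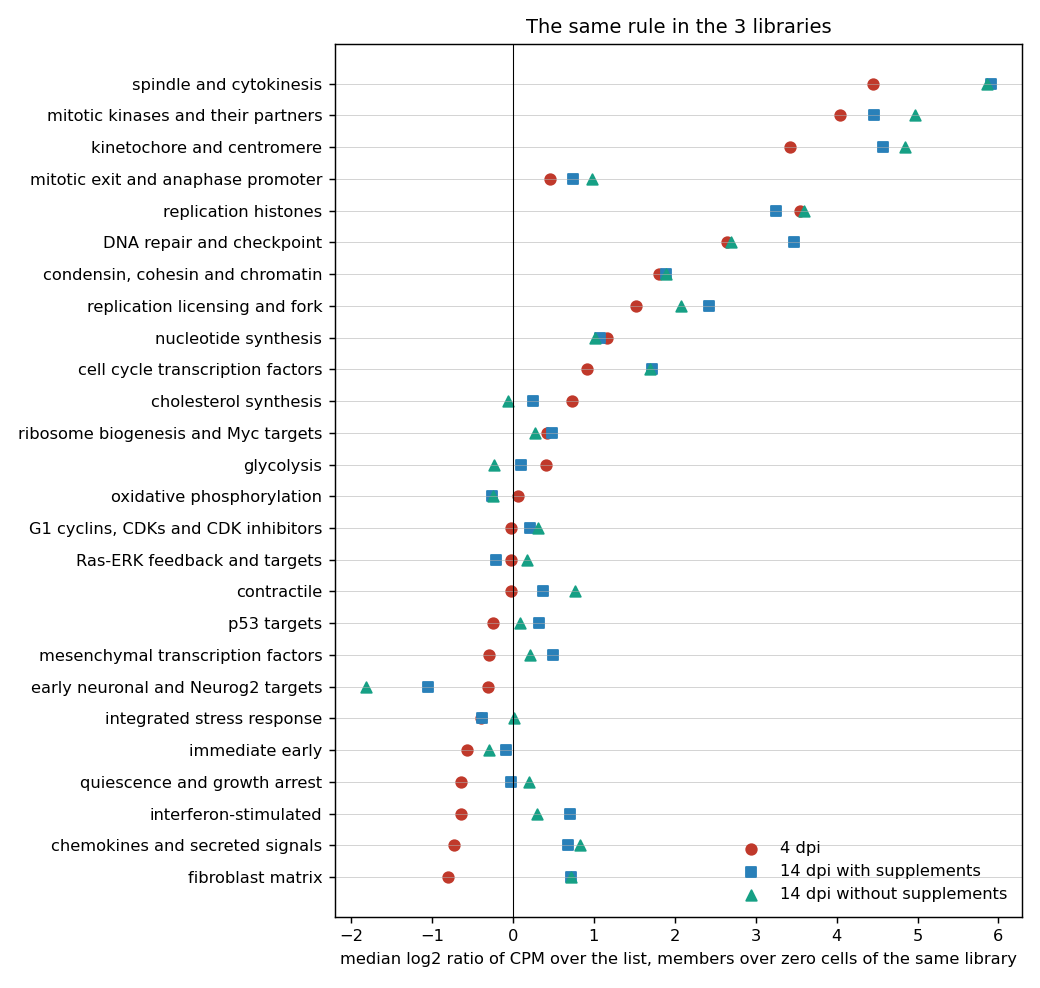
Each symbol is the median log2 ratio of CPM of a list, members over zero cells of the same library: circles for 4 dpi, squares for 14 dpi with supplements and triangles for 14 dpi without. Cycle lists lie to the right of 0 in all 3 libraries, while the fibroblast matrix list lies at -0.80 at 4 dpi and at 0.71 and 0.72 at 14 dpi.

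The medians of the cycle lists lay above 0 in all 3 libraries. So did that of ribosome biogenesis, at 0.42, 0.48 and 0.27, and that of the early neuronal list lay below 0 in all 3. The matrix, interferon-stimulated and chemokine lists lay below 0 only at 4 dpi, but this was not particular to them. In the same order of libraries, p53 targets had -0.24, 0.32 and 0.09, and mesenchymal factors -0.30, 0.49 and 0.22. Contractile genes had -0.02, 0.38 and 0.77, G1 regulators -0.02, 0.21 and 0.31, and ribosomal proteins -0.07, 0.43 and 0.23. The licensing list had medians of 1.52 at 4 dpi, 2.42 with supplements and 2.08 without, and the spindle list 4.45, 5.91 and 5.86. Pclaf, for example, had a ratio of 3.73 at 4 dpi and 8.75 and 7.98 at 14 dpi, where zero cells held 1.55 and 2.49 CPM against 52.8 CPM at 4 dpi. The early neuronal list stood at -0.31 at 4 dpi and at -1.05 and -1.81 at 14 dpi. Insm1, higher in members at 4 dpi (1.40), was lower at 14 dpi (-0.47 and -1.43). Cholesterol synthesis had 0.73, 0.25 and -0.06 in the same order. No test of these differences between libraries was possible with 1 library for each group, and the sort differed with the time. Depth differed too: the median zero cell held 1889 UMIs at 4 dpi, and 12697 with and 9484.5 without supplements at 14 dpi. Having no rule UMI was thus a stricter condition at 14 dpi, and the part of depth in these differences was not tested.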

How the data were processed

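Single cells of 3 libraries, 1 for each group, were prepared with 10x Genomics 3′ v3.1 reagents, per the labels' protocols. Cell Ranger 6.1.1 wrote the deposited UMI counts, per the file headers, for 31783 features. The submitters' processing notes name the build GRCm39. Barcode calling and the counting of intronic reads are not given in the sources used here.

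Features with the same symbol were summed (31744 symbols). Kept barcodes had 500 genes or more and no more than 20% mitochondrial UMIs (13 genes): 2314 of 2467, 3716 of 3893 and 4492 of 4602. Median depth was 14380.5, 10664 and 2312.5 UMIs. Scrublet, in scanpy 1.11.5, called 2 of 4492 cells doublets (0.0445%), too few for a caller that worked, so doublets were kept and the 5% with the highest scores left out as an alternative.

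Counts were summed over cells, and ratios of CPM carry exact binomial (Clopper-Pearson) 95% intervals, CPM exact Poisson ones and shares exact binomial ones. A count of 0 was set to 3 UMIs, which makes a ratio a bound; outside the rule genes this touched 1 counted list gene, Troap, of the spindle list. UMIs of 1 cell are not independent, so intervals are too narrow for differences between cells or cultures. Scripts were tested on simulated data. There were 40 gene lists. Members and lists were chosen with earlier results of these data known. Named genes are the highest, lowest and most abundant of each list with up to 3 more, the cassette genes, and the 12 highest and 12 lowest ratios at 30 CPM or more; not all are reported here. Features needed 20 CPM in either group. Promoter windows came from RefSeq on GRCm38.p6 and were matched by symbol; no coordinates were carried between builds. There were 17 alternatives, 1 of them added after the data were seen.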

Additional observations from a re-analysis of the deposited data

Results flagged for a closer look

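Several results pointed one way in members at 4 dpi and the other way in the members of both 14 dpi libraries, each set against the zero cells of its own library. The difference was not tested, since each group holds 1 library and the sorts differed. The median log2 ratio of the fibroblast matrix list was -0.80 at 4 dpi and 0.71 with and 0.72 without supplements at 14 dpi. Within it, the collagen gene Col1a1 had -1.06 against 0.97 and 0.68, and Dcn, decorin, -1.01 against 0.92 and 1.05. The chemokine list had -0.73 against 0.68 and 0.83. H19, the imprinted noncoding RNA, had -1.86 against 1.06 and 0.79. The zero cells at 14 dpi were sorted for the GFP reporter, and the median share of mitochondrial UMIs there was 6.09% with and 4.81% without supplements, against 3.90% at 4 dpi. The zero cells at 14 dpi were also deeper, with medians of 12697 UMIs with and 9484.5 without supplements, against 1889 at 4 dpi. Having no rule UMI was thus a stricter condition there. The part of the sort, the mitochondrial share and the depth in these differences was not tested.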

How the results depend on the processing

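No paired analysis was possible because each group holds 1 library. The share of members, 20.6%, was 34.3% at a threshold of 0.1%, 7.39% at 0.4%, 14.3% without Mki67 and Top2a in the rule, 25.9% for cells with at least 1000 genes and at most 10% mitochondrial UMIs, and 26.1% after thinning. The 381 higher genes became 242 against all other kept cells and 201 at 50 CPM, and the 248 lower genes 40 and 91 there and 435 at 10 CPM. The licensing median of 1.52 was 1.25 without Mki67 and Top2a, 1.26 after thinning and 0.84 against all other cells. The early neuronal median of -0.31 was -0.060 at the 0.4% threshold. The matrix median of -0.80 was -0.65 at 0.4%, -0.62 for cells with at least 1000 genes, -0.61 after thinning, -0.59 for cells with 1500 to 5000 UMIs, -0.48 against all other cells and -0.53 with zero cells weighted to the members' depth. The cause of these shifts was not tested, except that 10 and 50 CPM change how many genes are counted (8819 and 3565). The licensing, early neuronal and matrix medians kept their direction under the alternatives run. Elsewhere signs did turn: 46 times in 16 of 155 named genes and 13 times in 5 of 31 list medians. Those 5 were the contractile, G1, Ras-ERK and oxidative-phosphorylation lists and a list of sex-linked genes. Of higher and lower genes, 60.6% were higher, and 85.8% against all other cells, 67.1% as a mean over cells and 66.8% when scaled without cell-cycle genes. Depth sets what a zero cell means: a cell of 1889 UMIs at the threshold would hold 3.778 rule UMIs, so that zero cells can include cells near it.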
